A study of Mus musculus with 8 samples.

Results

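Entry of a cell into the division cycle is set in G1 by D cyclins, the kinases they switch on, the inhibitors that hold those kinases back and the Myc transcription factors. The 10 genes of this circuit followed here are the D cyclins *Ccnd1*, *Ccnd2* and *Ccnd3*, their kinases *Cdk4* and *Cdk6*, the Myc genes *Mycn* and *Myc*, and the CIP/KIP inhibitors *Cdkn1a* (p21), *Cdkn1b* (p27) and *Cdkn1c* (p57). They were chosen by name and found by symbol among the 49315 Ensembl genes counted, and all 10 were among the 17163 genes with enough counts to be tested. The data were RNA-seq of whole hearts from mouse embryos at embryonic day 9.5, with 4 libraries from wild-type embryos and 4 from embryos homozygous for Tbx20EH1Mut, each made from 3 pooled hearts. Tbx20 is a T-box factor of the heart, and in Tbx20EH1Mut the engrailed homology domain with which it binds TLE corepressors carries a substitution of 2 amino acids. The allele was made by CRISPR/Cas9 editing, was carried by male founders and was bred to C57BL/6J. As a germline allele it is present in every cell of the embryo, and the RNA-seq methods name no Cre driver. Whether wild-type and mutant hearts came from the same litters is not given in the sources used here, and animals of both sexes were used. The comparison asks how the G1 circuit of these hearts differed when Tbx20 carried the substitution, which was made to break its binding to TLE.

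In G1, a D cyclin binds CDK4 or CDK6, and the complex phosphorylates the retinoblastoma protein and its relatives, which then release E2F factors that switch on genes for DNA synthesis. CIP/KIP proteins bind cyclin and kinase together and block CDK2 in particular, and INK4 proteins bind CDK4 and CDK6 alone. Myc proteins pair with Max and raise genes for ribosome building and growth, and in the embryonic heart *Mycn* is known for its part in the growth of the compact myocardium, as *Cdkn1c* is for the withdrawal of cells from the cycle.

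The 3 D cyclins open with the short motif Leu-X-Cys-X-Glu, by which they hold retinoblastoma proteins. It is shown here in the first 60 coding bases of each, read from the GENCODE M21 transcripts of GRCm38, with the 5 codons of the motif in capitals, since the 3 genes share this work and *Ccnd3* differed from *Ccnd2* in its change.
Ccnd1: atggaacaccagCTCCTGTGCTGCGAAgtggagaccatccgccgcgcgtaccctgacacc
Ccnd2: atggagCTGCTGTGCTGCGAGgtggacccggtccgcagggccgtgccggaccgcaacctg
Ccnd3: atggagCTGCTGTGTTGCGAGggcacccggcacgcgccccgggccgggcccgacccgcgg
The motif began at codon 5 in *Ccnd1* and at codon 3 in *Ccnd2* and *Ccnd3*. Over the whole coding sequence, 66.2% of aligned bases were identical between *Ccnd1* and *Ccnd2*, 61.7% between *Ccnd1* and *Ccnd3* and 65.8% between *Ccnd2* and *Ccnd3*. The longest run of identical bases shared by any 2 of them was 20.

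Levels are counts relative to the TMM-scaled library size (CPM), listed in the order of replicates 1 to 4. Each log2 fold change (LFC, Tbx20EH1Mut against wild-type) and its standard error (SE) come from an edgeR quasi-likelihood fit, and its p is adjusted by Benjamini and Hochberg's method over all genes tested. Other values with ± are means and SDs over the 4 libraries of a genotype. Wild-type libraries held between 33359322 and 49523086 counts in total and Tbx20EH1Mut libraries between 36250675 and 38357025. *Tbx20* itself, whose counts do not show the substitution, lay between 353 and 379.6 CPM in wild-type and between 215 and 317 CPM in mutant hearts (adjusted p = 0.0273). The 8 cardiomyocyte markers, *Tnnt2* and *Actc1* among them, summed to between 22046 and 30506 CPM in wild-type and between 22130 and 33576 CPM in mutant libraries, and 0 of the 8 passed the test. The 8 red cell markers summed to between 1767 and 4612 CPM against between 327 and 1035 CPM, with 7 of 8 lower in mutant hearts. Foregut epithelium markers summed to between 189.7 and 295 CPM against between 648 and 878 CPM, with 4 of 10 higher. The keratins *Krt8* and *Krt18* were among these 4 and held most of the sums. Without them the sums overlapped, at 1.16 to 61.5 CPM in wild-type and 25.3 to 192 CPM in mutant libraries. Also higher were 2 of 6 epicardium markers (*Wt1* and *Aldh1a2*) and 3 of 8 endothelium and endocardium markers. The epicardium sums overlapped, at 58.6 to 177 CPM in wild-type and 128 to 165 CPM in mutant libraries. The other 4 epicardium markers had log2 fold changes from -0.59 to -0.06 and did not pass. The endothelium and endocardium sums were 642 to 827 CPM in wild-type and 833 to 913 CPM in mutant libraries. Of 8 mesenchyme and second heart field markers 5 were higher, with sums of 106.5 to 149.9 CPM against 274.7 to 390.2 CPM. Neural tube and neural crest markers summed to 3.05 to 5.28 CPM against 7.41 to 9.47 CPM, with 1 of the 3 tested higher. That gene, *Pax6*, averaged 1.87 CPM in wild-type and 6.29 CPM in mutant libraries and held most of the mutant sums. *Sox10* and *Elavl3* had log2 fold changes of -0.96 and -0.33 that did not pass. These marker counts stand beside 15.3% lower and 14% higher over all genes tested. Beyond the fits with marker levels given below, the part of these cell types in the results was not tested. In whole hearts, fewer cells of a type and less RNA per cell cannot be told apart.

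Of the 10 genes, 3 were lower in Tbx20EH1Mut hearts (*Ccnd1*, *Ccnd2* and *Cdk6*), 2 were higher (*Myc* and *Cdkn1b*), and 5 did not pass the test. Over all genes tested, 15.3% passed in the lower and 14% in the higher direction, so that 29.3% passed in either. In each of the 5 that passed, the absolute log2 fold change was also at least 0.5, which 12.1% of all genes tested reached with a pass in the lower and 12.5% in the higher direction. The mutant libraries lay apart from all wild-type libraries in 6 of the 10 genes, 4 below and 2 above, where 30.5% of all genes tested did so. The median log2 fold change was -0.17 over the 10 genes and 0.0048 over all genes tested.

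**Figure D1:**
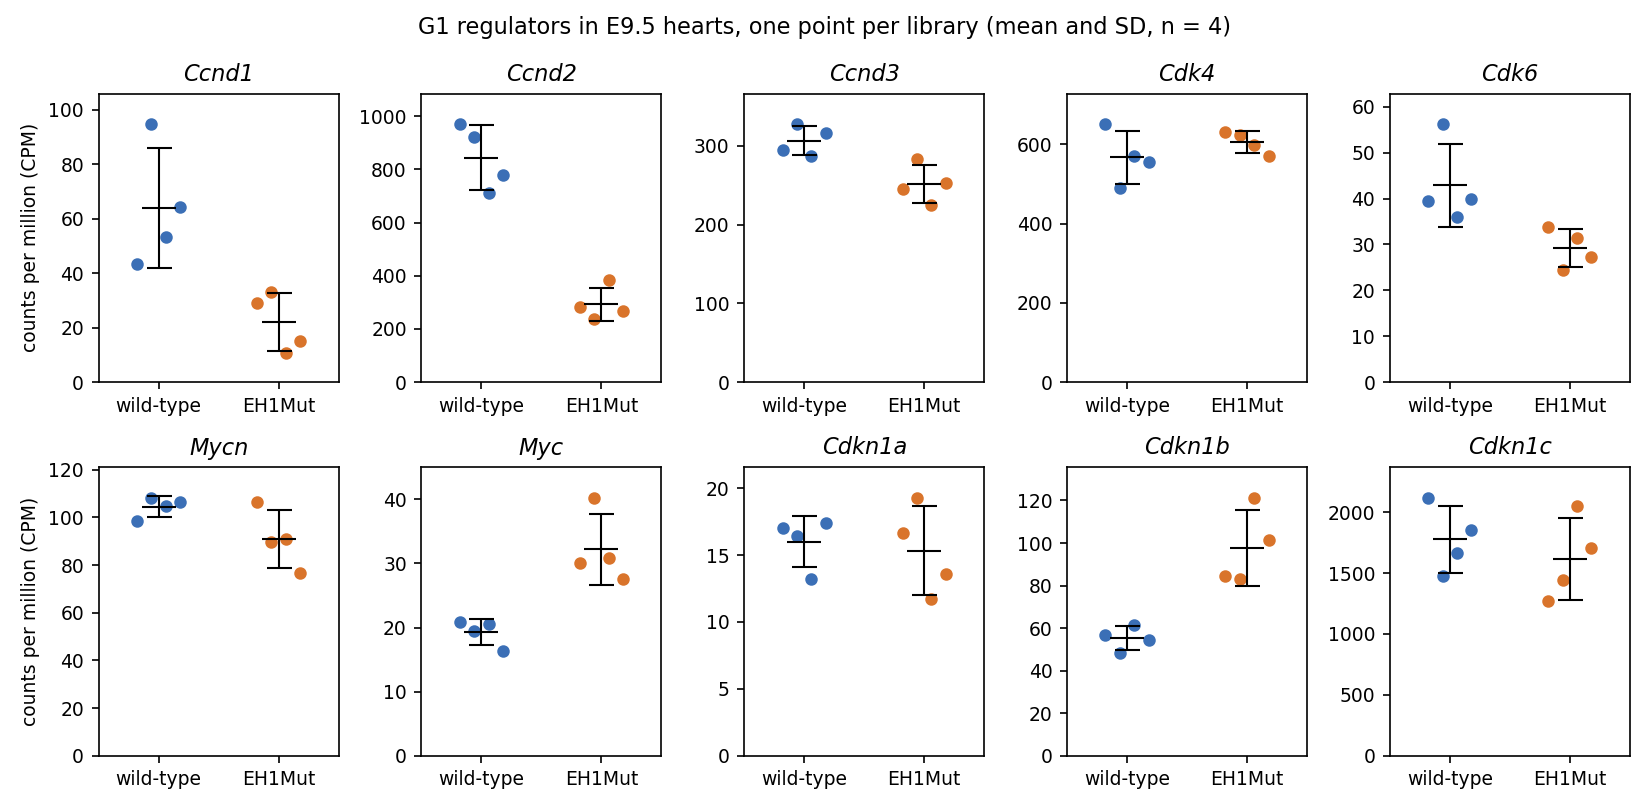
Level of each of the 10 genes in CPM on the vertical axis, each panel starting at 0, with 1 point per library for wild-type and Tbx20EH1Mut hearts and the mean and SD of each genotype as bars. The mutant points lie below every wild-type point for *Ccnd1*, *Ccnd2*, *Ccnd3* and *Cdk6*, and above every one for *Myc* and *Cdkn1b*, and the genotypes overlap for the other 4 genes.

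*Ccnd2* was the most abundant D cyclin of the wild-type heart and fell in every mutant library. It lies at chr6:127125162-127152193 of GRCm38 on the minus strand. Wild-type libraries held 969.5, 922, 709.8 and 777 CPM, and mutant libraries 285, 239, 383 and 266 CPM. The lowest wild-type library thus stood well above the highest mutant library, replicate 3. The ratio of the means was 0.347 and the LFC -1.53 (SE 0.172, adjusted p = 3.7e-04). Leaving out each library in turn gave values from -1.68 to -1.44, and the adjusted p was at most 0.00292 in these fits.

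*Ccnd1* (chr7:144929931-144939925, minus strand) had nearly the same fold change at a far lower level. Its wild-type libraries were at 43.4, 94.5, 53.3 and 64.2 CPM and its mutant libraries at 29.1, 32.9, 10.8 and 15.2 CPM. The genotypes did not overlap, but the spread was wide, with a coefficient of variation of 34.7% in wild-type and 48.4% in mutant hearts against 14.4% and 21.4% for *Ccnd2*. The LFC was -1.53 with an SE of 0.356 (adjusted p = 0.0113). Within each genotype the highest *Ccnd1* values came from the libraries with the most RNA of foregut markers other than the keratins *Krt8* and *Krt18*. The summed level of these 8 markers, among them *Epcam* and *Cdh1*, was 3.004, 61.5, 1.16 and 10.98 CPM in wild-type and 192, 165, 25.3 and 77.9 CPM in mutant libraries. Wild-type replicate 2 had the highest *Ccnd1* and the highest such sum of its genotype, and mutant replicates 1 and 2 stood above replicates 3 and 4 in both. With the keratins included, the 10 markers summed to 878, 781, 648 and 825 CPM in the mutant libraries, so that replicate 4 stood above replicate 2. These 10-marker sums did not overlap between genotypes. A fit with the foregut level can therefore tell that level from the genotype only in part. With the mean log2 level of all 10 foregut markers as a covariate the log2 fold change was -2.82 (adjusted p = 1.7e-04), and without wild-type replicate 2 and mutant replicates 1 and 2, an alternative chosen after seeing the data, it was -2.03 (adjusted p = 0.0027). For *Ccnd2* the same fits gave -1.40 and -1.33. Over all genes, 3676 passed lower and 3391 higher with the foregut covariate, against 2618 and 2406 in the fit on genotype alone.

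**Figure D2:**
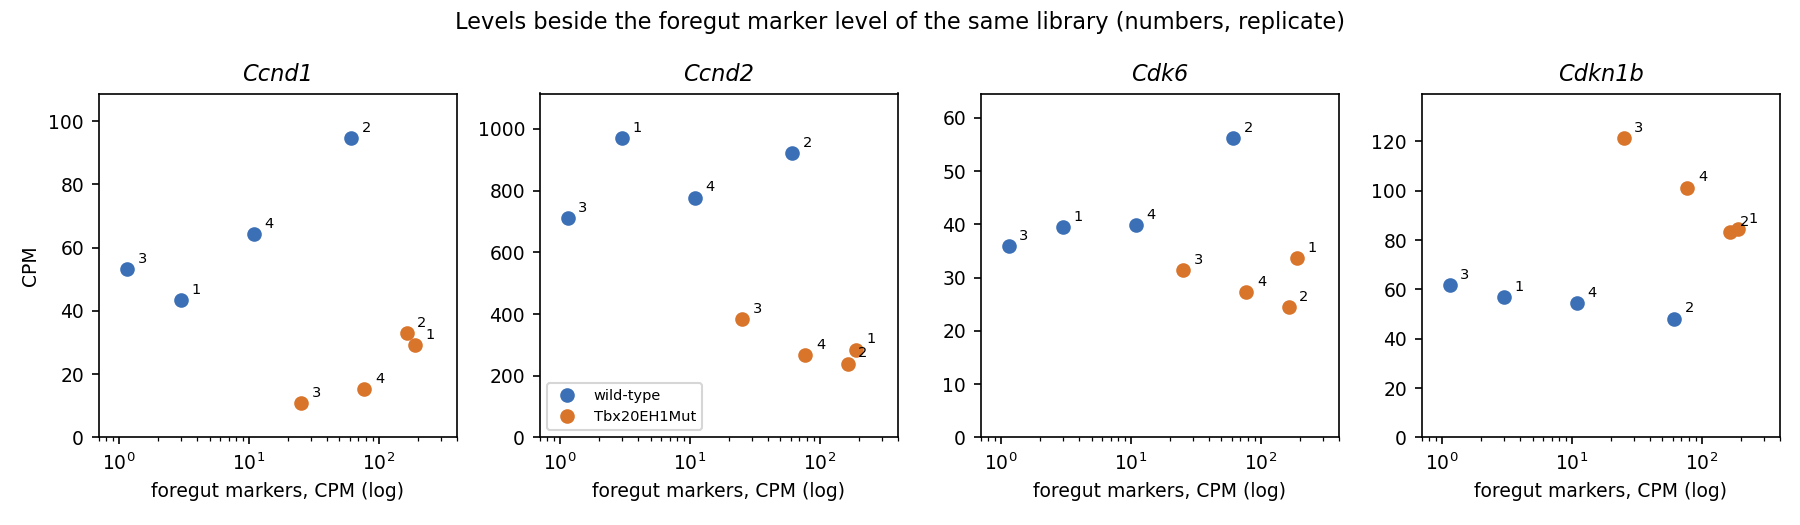
Level of *Ccnd1*, *Ccnd2*, *Cdk6* and *Cdkn1b* in CPM, each panel starting at 0, against the summed CPM of 8 foregut markers (without *Krt8* and *Krt18*) in the same library on a log axis, with 1 point per library numbered by replicate. *Ccnd1* reaches 94.5 CPM in wild-type replicate 2, the wild-type library with the highest sum of these markers (61.5 CPM), while mutant libraries with still higher sums lie at 32.9 CPM or below.

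*Ccnd3* (chr17:47505051-47599691, plus strand) moved least of the D cyclins. It was at 295, 327, 288 and 317 CPM in wild-type and 245, 283, 224 and 253 CPM in mutant hearts. Every mutant library was below every wild-type library, with the nearest pair 283 and 288 CPM. Its LFC of -0.29 (SE 0.11) did not pass the test, with an adjusted p of 0.0743, and it passed with DESeq2's Wald test (0.0452) and with the foregut covariate (0.0186). The log2 ratio of *Ccnd2* to *Ccnd3* per kilobase, which does not depend on how libraries are scaled, was 1.35 ± 0.198 in wild-type and 0.103 ± 0.424 in mutant hearts (SD, n = 4 each). The 2 genes thus changed by different amounts, by 1.25 on the log2 scale (p = 0.0286 in a two-sided exact permutation test, which with 4 against 4 libraries gives no smaller p, and 0.0429 adjusted over the 6 ratios tested). The ratio of *Ccnd2* to *Ccnd1* differed by 0.08, from 2.78 ± 0.507 to 2.86 ± 1.01 on the log2 scale, with ranges of 2.29 to 3.48 and 1.86 to 4.15 (exact two-sided permutation test, p = 0.914).

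Scaled by exon length, the D cyclins together gave 138 ± 15.7 CPM per kilobase in wild-type and 64.5 ± 3.35 in mutant hearts. *Ccnd2* held 64.8% ± 3.89 of that sum in wild-type and 48.1% ± 8.30 in mutant hearts. *Ccnd3*, whose own level did not pass the test, held 25.4% ± 2.24 and 44.6% ± 5.57, and *Ccnd1* had 9.75% ± 2.72 and 7.28% ± 3.51. In the mutant heart the messages of *Ccnd2* and *Ccnd3* were therefore near equal per kilobase, at 31.2 ± 6.66 and 28.7 ± 2.78, where in wild-type they were at 89.8 ± 12.9 and 35.0 ± 2.11.

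**Figure D3:**
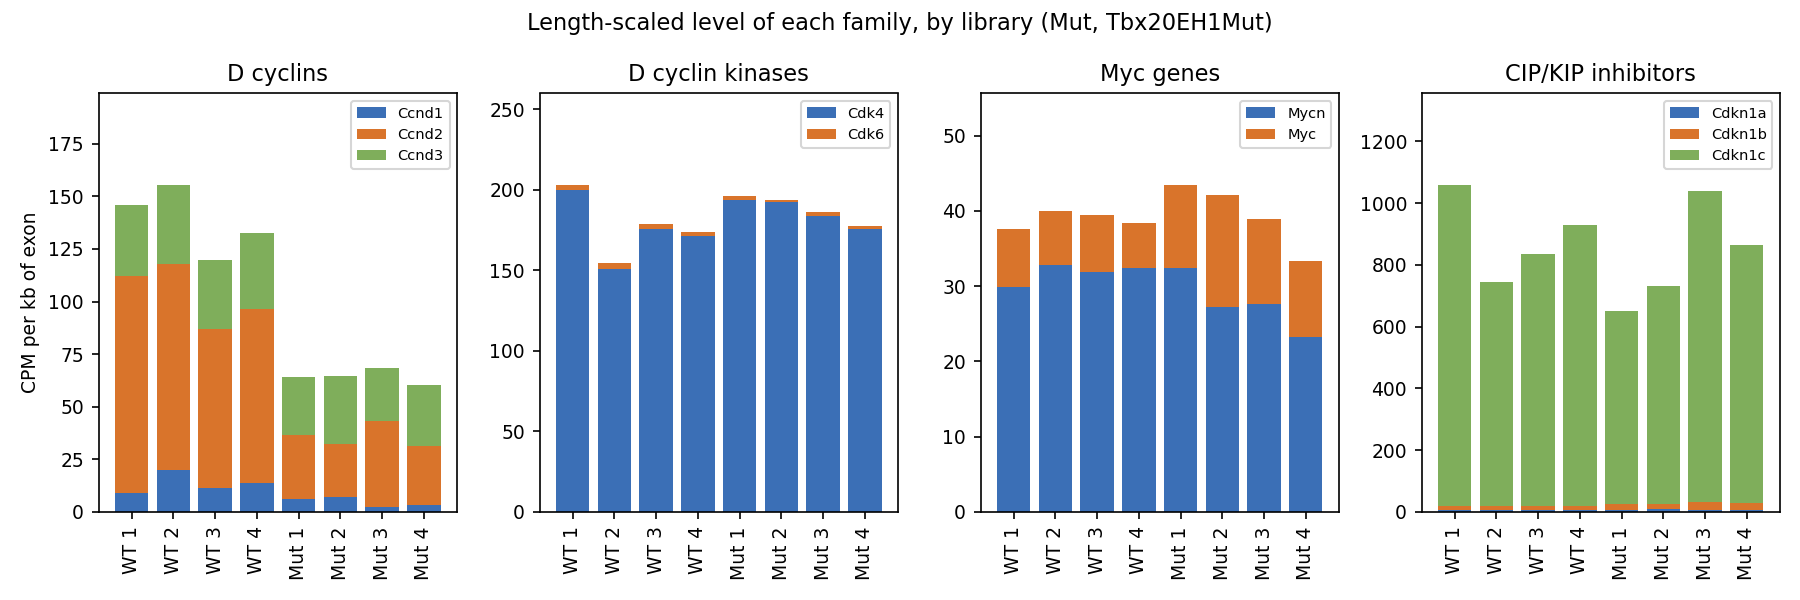
Stacked bars of CPM per kilobase of exon for each family, 1 bar per library and 1 colour per gene, each axis starting at 0. The D cyclin bars reach between 119.5 and 155 in wild-type and between 60.4 and 68.6 in mutant libraries, and the kinase, Myc and CIP/KIP bars overlap between genotypes.

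Of the kinases, *Cdk6* was lower in mutant hearts and *Cdk4* did not pass the test. *Cdk4* (chr10:127063534-127067920, plus strand) had 649.8, 489, 571 and 556 CPM in wild-type and 629.7, 624, 597 and 569.8 CPM in mutant libraries. These values overlapped, and the LFC of 0.10 (SE 0.118) had an adjusted p of 0.564. *Cdk6* (chr5:3341485-3531008, plus strand), which can stand in for *Cdk4*, was at 39.5, 56.2, 35.9 and 39.9 CPM in wild-type and 33.7, 24.4, 31.35 and 27.3 CPM in mutant libraries. Its groups did not overlap, although the nearest libraries were at 35.9 and 33.7 CPM, and its highest value was again wild-type replicate 2. The LFC was -0.55 (SE 0.162, adjusted p = 0.0291). The call was lost without wild-type replicate 2 (-0.39, adjusted p = 0.052), wild-type replicate 4 (-0.60, 0.0556), mutant replicate 2 (-0.48, 0.0695) or mutant replicate 4 (-0.52, 0.0836), as well as with a replicate block (-0.54, 0.0709), and without wild-type replicate 2 and mutant replicates 1 and 2 together (-0.38, 0.061). With the foregut covariate the LFC was -0.84 (adjusted p = 0.00719). The log2 ratio of *Cdk4* to *Cdk6* per kilobase went from 5.84 ± 0.423 to 6.49 ± 0.206 (exact two-sided permutation test, p = 0.0286, adjusted 0.0429). *Cdk4* made up 98.2% ± 0.564 of the kinase message per kilobase in wild-type and 98.9% ± 0.149 in mutant hearts, so the sum, 177 ± 19.9 and 188 ± 8.52 CPM per kilobase, followed *Cdk4*.

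RefSeq promoter entries were matched for 6 of the 10 genes (not *Ccnd1*, *Ccnd2*, *Myc* and *Cdkn1c*). The promoter of *Cdk4* is shown because it alone of the 6 held more than 1 E-box, the letters CACGTG that Myc and Max bind. The 250 bases before the start in RefSeq's annotation of GRCm38.p6 are chr10:127063285-127063534 on the plus strand, and those of *Cdkn1b*, the inhibitor that rose, are chr6:134920151-134920400 on the plus strand. Capitals mark E-boxes, the core T-box letters GGTGTG and GC-boxes (GGGCGG), each searched on both strands.
Cdk4: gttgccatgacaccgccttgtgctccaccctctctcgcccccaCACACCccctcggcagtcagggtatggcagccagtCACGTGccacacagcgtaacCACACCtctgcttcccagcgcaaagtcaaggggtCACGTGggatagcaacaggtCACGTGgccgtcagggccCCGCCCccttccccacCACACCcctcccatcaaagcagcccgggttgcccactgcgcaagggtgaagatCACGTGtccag
Cdkn1b: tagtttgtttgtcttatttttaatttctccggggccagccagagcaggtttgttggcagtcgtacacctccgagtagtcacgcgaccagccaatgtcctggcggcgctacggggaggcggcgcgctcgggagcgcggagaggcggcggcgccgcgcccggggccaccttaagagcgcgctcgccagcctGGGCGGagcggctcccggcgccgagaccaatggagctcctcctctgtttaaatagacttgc
*Cdk4* held 4 E-boxes, 3 core T-box matches and 1 GC-box. At least 1 E-box was in 6.02% of the 32851 promoter windows of the same length, and at least 4 were in 7 of them (0.0213%). The core T-box letters were in 16.3% and the GC-box in 32.7% of all windows. *Mycn* and *Cdkn1a* also held 1 core T-box match each, and *Mycn*, *Cdkn1a* and *Ccnd3* also held GC-boxes. *Cdkn1b* held 1 GC-box and none of the other letters searched. The E2F letters TTTNGCG, in 3.49% of all windows, matched 3 times in the *Mycn* window, with overlap between matches, and *Cdk6* had 1 E-box and 1 TATAAA (in 12.4%). GCGGGAA, in 3.82% of all windows, was in none of those of the 6 genes. A match is only a description of the letters.

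Of the Myc genes, *Myc* rose and *Mycn* did not pass the test. *Mycn* (chr12:12936096-12941914, minus strand) had 98.6, 108, 105 and 107 CPM in wild-type and 106.5, 89.8, 90.8 and 76.5 CPM in mutant libraries. Mutant replicate 1 lay among the wild-type libraries and the other 3 below them. The LFC was -0.20 (SE 0.115, adjusted p = 0.204), and it was -0.28 (adjusted p = 0.0957) without mutant replicate 1. That adjusted p was the lowest of the 8 fits with 1 library left out, and the highest was 0.461. *Myc* (chr15:61985391-61990374, plus strand) rose from 20.8, 19.5, 20.5 and 16.3 CPM in wild-type to 30.1, 40.2, 30.9 and 27.5 CPM in mutant libraries, with no overlap. Its LFC was 0.74 (SE 0.143, adjusted p = 0.00499), and the adjusted p stayed at or below 0.0226 with any 1 library left out. *Mycn* remained the more abundant of the pair, with 81.7% ± 2 of the message per kilobase in wild-type and 69.9% ± 3.99 in mutant hearts. The log2 ratio of *Mycn* to *Myc* fell by 0.94, from 2.17 ± 0.197 to 1.23 ± 0.273 (exact two-sided permutation test, p = 0.0286, adjusted 0.0429). The sum of both was 38.9 ± 1.08 CPM per kilobase in wild-type and 39.5 ± 4.47 in mutant hearts.

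Among the CIP/KIP inhibitors, *Cdkn1b* rose while *Cdkn1c* and *Cdkn1a* did not pass the test. *Cdkn1b* (chr6:134920401-134925513, plus strand) was at 57.0, 48.1, 61.6 and 54.4 CPM in wild-type and 84.3, 83.2, 121 and 101 CPM in mutant libraries. All mutant libraries were above all wild-type libraries, and replicates 3 and 4, the mutants lowest in *Ccnd1*, were the highest. The ratio of the means was 1.76 and the LFC 0.82 (SE 0.143, adjusted p = 0.00312), between 0.70 and 0.89 with 1 library left out. It was 1.23 with the foregut covariate and 0.95 without wild-type replicate 2 and mutant replicates 1 and 2.

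*Cdkn1c* (chr7:143458339-143461050, minus strand) was the most abundant of the 10 genes per kilobase, at 872 ± 134 in wild-type and 793 ± 167 in mutant hearts. Its libraries held 2117, 1478, 1662 and 1853 CPM against 1273, 1439.9, 2052 and 1702 CPM, and the genotypes overlapped. The LFC was -0.14 (SE 0.175, adjusted p = 0.577), and it turned to 0.32 with the foregut covariate (adjusted p = 0.177). *Cdkn1a* (chr17:29090979-29100722, plus strand), a target of p53, was at 17.0, 16.4, 13.2 and 17.4 CPM and at 16.7, 19.3, 11.75 and 13.6 CPM. Its LFC of -0.06 had an SE of 0.173 and an adjusted p of 0.81, and its sign changed with upper-quartile scaling (0.02). *Cdkn1c* made up 97.8% ± 0.228 of the CIP/KIP message per kilobase in wild-type and 96.5% ± 0.413 in mutant hearts, and *Cdkn1b* 1.38% ± 0.190 and 2.62% ± 0.156. The log2 ratio of *Cdkn1c* to *Cdkn1b* fell by 0.95, from 6.16 ± 0.199 to 5.21 ± 0.0880 (exact two-sided permutation test, p = 0.0286, adjusted 0.0429). That of *Cdkn1c* to *Cdkn1a* was 6.92 ± 0.227 and 6.85 ± 0.594 (exact two-sided permutation test, p = 0.8). Per kilobase, the sum of D cyclins over the sum of CIP/KIP inhibitors was 0.158 ± 0.0341 in wild-type and 0.0808 ± 0.0155 in mutant hearts, with ranges of 0.138 to 0.209 and 0.0661 to 0.0989 that did not meet.

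**Figure D4:**
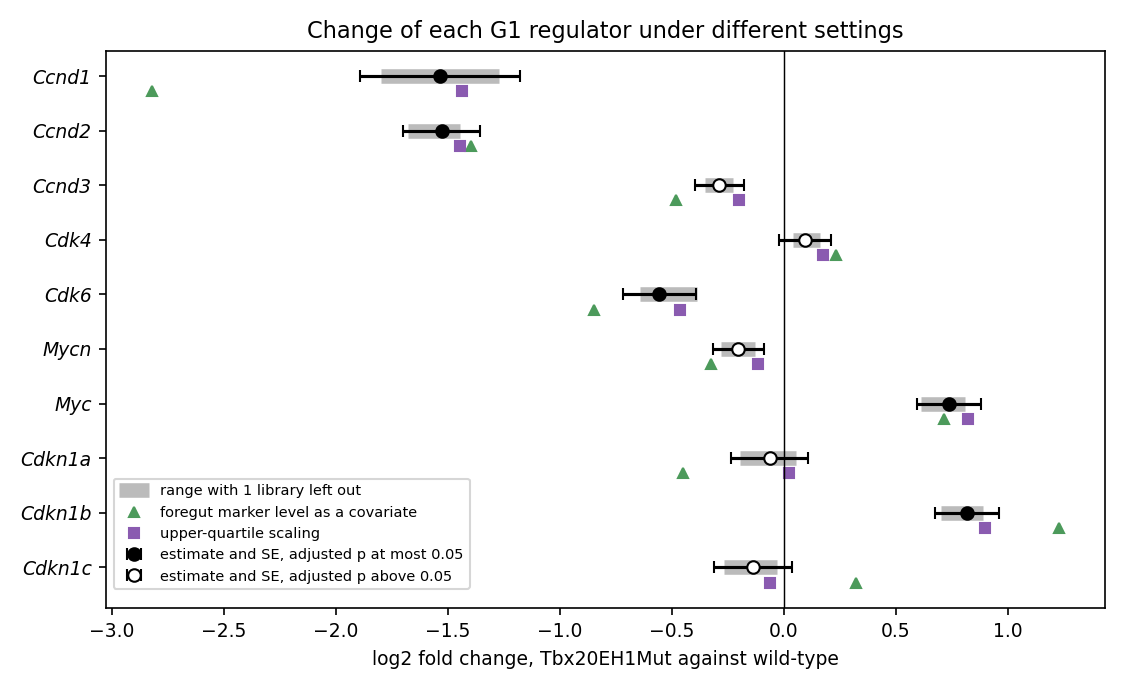
Log2 fold change of each of the 10 genes (Tbx20EH1Mut against wild-type) with its standard error, filled where the adjusted p is at most 0.05, beside the range with 1 library left out and the values under 2 other settings. *Ccnd1* and *Ccnd2* lie together at -1.53, and the foregut covariate moves *Ccnd1* to -2.82 and *Cdkn1c* across 0 to 0.32.

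Red cell markers fell in the mutant hearts without overlap between genotypes, so their level and the genotype cannot be told apart in these libraries. With their mean level as a covariate, *Ccnd2* still passed (adjusted p = 0.0107), and *Ccnd1* (LFC -0.90, adjusted p = 0.616), *Cdk6* (-0.76, 0.348), *Myc* (0.53, 0.476) and *Cdkn1b* (0.56, 0.44) kept their direction and did not pass. Over all genes, 19 passed lower and 76 higher in that fit, and of the lists described next it left 0 lower genes among the circuit, E2F-responsive and Myc-responsive genes. Over the 10 alternatives that kept all libraries and tested against no change, the red cell fit gave the highest adjusted p of each of these 5 genes, and the lowest was 7.2e-05 for *Ccnd1*, 3.7e-15 for *Ccnd2*, 0.00719 for *Cdk6*, 1.8e-04 for *Myc* and 1.9e-05 for *Cdkn1b*, while the range was 0.0186 to 0.771 for *Ccnd3* and 0.177 to 0.831 for *Cdkn1c*. When edgeR's glmTreat asked for a change beyond 0.5 on the log2 scale, *Ccnd2* passed and *Ccnd1* (adjusted p = 0.0515), *Cdkn1b* (0.0712), *Myc* (0.135) and *Cdk6* (0.502) did not.

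Several of the 10 genes share exon bases with a gene on the opposite strand, and the strand setting of the counting is not given in the sources used here, so the reads of such pairs cannot be told apart. *Ccnd1* shares 23.4% of its exon bases (1100) with *LTO1*, for which 6311 counts were summed over 8 libraries, beside 14977 for *Ccnd1*. *Cdk4* shares 18.6% with *Tspan31* (13903 against 187976 counts) and *Cdkn1c* 30.7% with *Gm44732* (1368 against 543939). The overlaps of *Ccnd3* with *Bysl*, of *Ccnd2* with *Gm43126* and *9330179D12Rik* and of *Cdk6* with *Gm17590* cover at most 4.11% of exon bases. *Mycn* and *Cdkn1a* have other starts or ends in the files than in GENCODE M21.

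Around these genes, 43 genes in 7 lists of the G1 circuit were read from the same fit. Of the 41 tested, 16 were lower and 4 higher in mutant hearts, against 15.3% and 14% over all genes tested. Without wild-type replicate 3 the lower genes numbered 10, and without wild-type replicate 1 the higher ones numbered 7. Among the INK4 inhibitors, *Cdkn2a* and *Cdkn2b* had at most 9 and 19 counts in any library and were not tested. *Cdkn2c* (p18) fell from 4.45 ± 1.01 to 2.57 ± 0.652 CPM (LFC -0.79, adjusted p = 0.04), and *Cdkn2d* (p19) was at 59.99 ± 10.1 and 61.6 ± 6.62 CPM.

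The retinoblastoma protein and its relatives, on which the D cyclin kinases act, did not move as one. *Rb1* rose from 7.24 ± 0.535 to 11.3 ± 0.462 CPM (LFC 0.64, adjusted p = 0.00674). *Rbl1* (p107) fell by 0.34 on the log2 scale, and *Rbl2* (p130) was at an LFC of -0.53 (adjusted p = 0.0544) and did not pass.

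Of the 10 E2F and DP factors, 6 were lower and 0 higher, against 15.3% and 14% over all genes tested. Their median log2 fold change was -0.56. The largest falls were in *E2f8*, from 50.4 ± 13.2 to 17.9 ± 2.02 CPM (LFC -1.49), and *E2f7* (-0.90), atypical E2Fs that repress E2F targets and are themselves raised in S phase. *E2f6* (-0.64) and *E2f4* (-0.58), which also act mostly as repressors, fell less. The activator *E2f1* (-0.54) and the dimer partner *Tfdp1* (-0.58) were the other 2 to fall.

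Of the 6 genes for cyclins E and A with CDK2 and its phosphatase, 3 were lower and 0 higher, with a median of -0.50. Over all genes tested, 15.3% were lower and 14% higher. *Ccne1* (cyclin E1), which activates CDK2 after the D cyclins have acted, fell from 73.8 ± 3.20 to 36.2 ± 2.92 CPM, at an LFC of -1.03 (adjusted p = 1.6e-04). *Ccna2* (cyclin A2) fell from 207 ± 9.15 to 124 ± 10.1 CPM and *Cdc25a*, the phosphatase that frees CDK2, from 68.4 ± 11.2 to 41.5 ± 4.71 CPM. *Skp2*, the F-box protein that marks p27 for breakdown, fell by 0.77 on the log2 scale, from 65.9 ± 11.4 to 38.7 ± 9.04 CPM, in the hearts where *Cdkn1b* rose. With it *Cul1* (-0.61), the scaffold of the same ligase, and *Usp28* (-0.56), which protects Myc from breakdown, were the 3 of 7 turnover genes that passed. All 3 were lower, as were 15.3% of all genes tested, while the median of the 7 was 0.13.

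Among 10 partners and antagonists of Myc, 2 were higher and 2 lower, near the shares of all genes tested (14% higher and 15.3% lower). *Mxi1*, a Max partner that opposes Myc, rose from 32.3 ± 0.684 to 80.9 ± 4.85 CPM (LFC 1.32, adjusted p = 2.7e-05). *Mycl*, the third Myc gene, rose from 5.87 ± 1.52 to 13.1 ± 3.37 CPM (1.16), and *Mlxip* (-0.69) and *Mlx* (-0.46), a pair of nutrient-responsive relatives, fell. Of the 3 parts of the CDK-activating kinase, *Mnat1* rose (0.56) and *Cdk7* and *Ccnh* had log2 fold changes of -0.08 and 0.12 that did not pass.

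Of 16 E2F-responsive genes of the G1/S step, 9 were lower and 0 higher, against 15.3% and 14% over all genes tested. Their median log2 fold change was -0.47. *Rrm2*, a subunit of ribonucleotide reductase, fell from 261 ± 11.5 to 117 ± 8.67 CPM (-1.16), and *Ung* (-0.80), *Mcm5* (-0.78) and *Cdc6* (-0.76) followed in size. Of 16 Myc-responsive growth genes, 11 were lower and 0 higher, against the same shares of all genes, with a median of -0.43. *Bop1*, needed for ribosome assembly, fell from 74.8 ± 16.3 to 27.5 ± 9.50 CPM (-1.45), and *Cad* (-1.31) for pyrimidine synthesis, *Srm* (-1.11) for spermidine and *Polr1b* (-1.03), a subunit of RNA polymerase I, also fell. These genes were lower in hearts where *Myc* was higher and *Mycn* did not pass the test. Without mutant replicate 4 the lower genes numbered 5 and 7 in these 2 lists, and without wild-type replicate 4 the lower Myc-responsive genes numbered 7.

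Among 15 p53-responsive genes, 6 were lower and 3 higher, with a median of -0.28, against 15.3% lower and 14% higher over all genes tested. *Aen* fell from 44.0 ± 15.0 to 11.2 ± 5.90 CPM (-1.97), *Gtse1*, which is also high in G2 (-1.14), and *Perp* (-0.93) fell, and *Btg2*, which restrains proliferation, rose from 22.4 ± 0.533 to 40.6 ± 9.06 CPM (0.86). *Mdm2* had a log2 fold change of -0.22 that did not pass, as *Cdkn1a* did not.

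Of 16 genes listed for signals upstream of D cyclins in the heart, 4 were lower and 4 higher, with a median of -0.02. The shares over all genes tested were 15.3% lower and 14% higher. The list holds *Ccn1* and *Ccn2*, which are targets of YAP and not regulators of D cyclins, and both were among the 4 higher genes. *Hand1*, a ventricular factor, had the largest fall (-2.51), and the growth factor *Igf2* fell from 3509 ± 665 to 2224 ± 328 CPM (-0.66) while its receptor *Igf1r* rose from 139.8 ± 31.8 to 269 ± 57.0 CPM (0.95). *Erbb2*, a neuregulin receptor subunit, fell by 0.50 on the log2 scale. *Ccn2* rose by 1.65 and *Ccn1* by 0.85 on the log2 scale, and *Yap1* itself was at 192 ± 16.7 and 191 ± 10.1 CPM. *Wwtr1*, the relative of *Yap1* in the list, was the remaining higher gene.

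**Figure D5:**
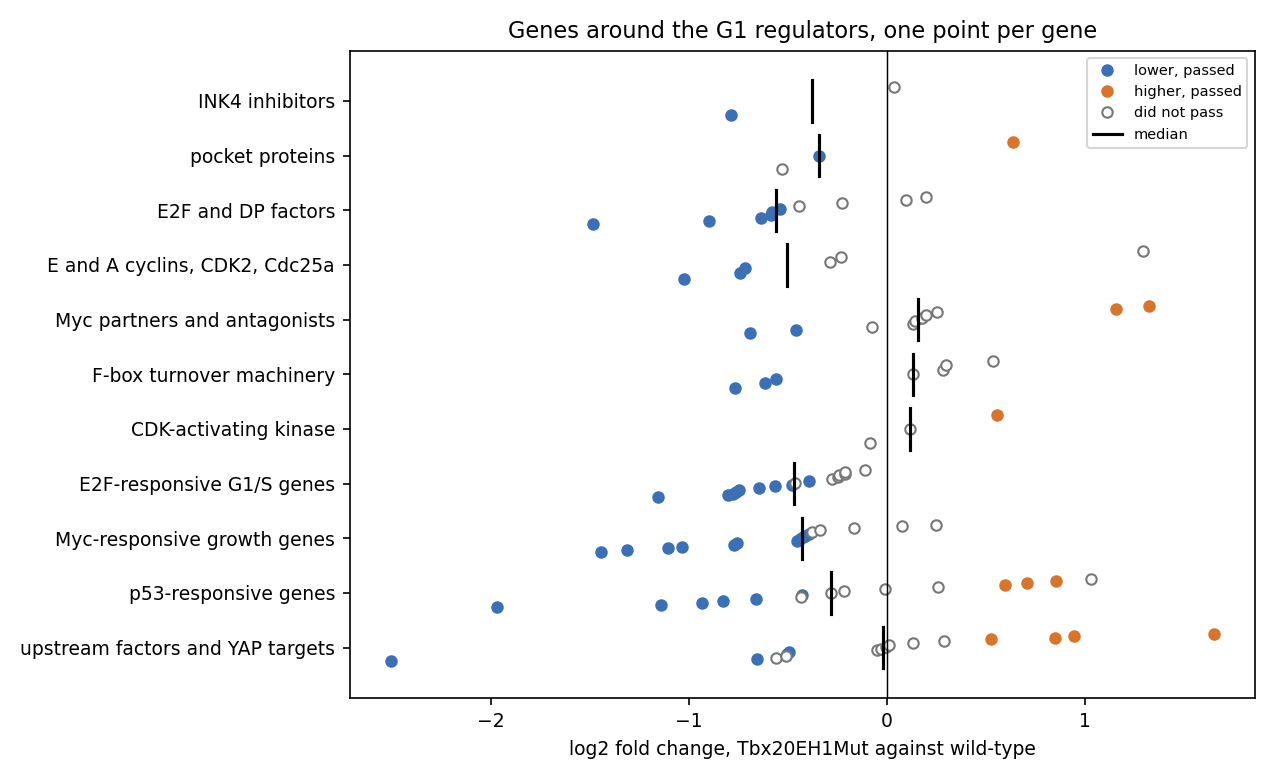
Log2 fold change (Tbx20EH1Mut against wild-type) of each tested gene of the 11 lists, 1 point per gene, with filled points where the adjusted p is at most 0.05 (blue lower, orange higher), open points where it is not, and a black bar at the median of each list. The E2F-responsive and Myc-responsive lists hold 9 and 11 lower and 0 higher genes, while the Myc partners hold 2 of each. Over all genes tested, 15.3% were lower and 14% higher.

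Across the 8 libraries, the genes whose log2 CPM ran most like *Ccnd1* among 9303 genes of at least 10 CPM were *Mllt1* (Pearson r 0.994), *Cdk8* (0.993) and *Rexo4* (0.991). For *Ccnd2* they were *Tmem248* (0.991), *Dna2* (0.989) and *Dolpp1* (0.988), for *Mycn* *Spns1* (0.936), *Trim27* (0.935) and *Tsr2* (0.929), and for *Cdkn1c* *Vma21* (0.972), *Timm17a* (0.970) and *Manf* (0.968). The 8 points share the difference between genotypes, and the values are descriptions.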

How the data were processed

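For each library the authors deposited the raw, unnormalized counts of every Ensembl gene; 3 hearts were pooled per library and RNA was poly-A selected. The submitters' processing notes name Trimmomatic 0.36, STAR 2.5.2b and GRCm38, and the counting tool and its strand setting are not given in the sources used here. Symbols came from GENCODE M21 (48970 of 49315 genes, 91.4% with the same start and end). The 10 genes, the lists and the rule for named genes (from each list up to 4 genes that passed, averaged 1 CPM or more and had the largest fold changes, and genes that failed the filter) were chosen with earlier results of these data known. A few further list members (*Cdkn2d*, *Rbl2*, *E2f1*, *Tfdp1*, *Cdk7*, *Ccnh*, *Mdm2*, *Igf2*, *Erbb2*, *Yap1*, *Wwtr1*) were named after their values were seen.

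Counts were fitted in R 4.3.3 with edgeR 4.0.16 (filterByExpr, TMM, glmQLFit, glmQLFTest, genotype as the only term), and a gene passed at an adjusted p of at most 0.05. The standard error is the absolute log2 fold change over the root of F. Ratios of CPM per kilobase were compared by an exact two-sided permutation test over 70 arrangements. On simulated counts for this comparison (16920 genes, 192 changed), 49.5% of genes changed by 1 and 91.6% of those changed by 1.5 on the log2 scale were recovered, and 3.7% of calls were false. The simulation gave every gene the same spread between libraries (a dispersion of 0.0707). It also changed a far smaller share of genes than the 29.3% that passed here, so its rates need not hold for these data. Alternatives were other scalings, DESeq2 1.42.0, limma-voom (limma 3.58.1), other filters, marker levels as covariates (log2 of CPM + 0.5), a replicate block, glmTreat and leaving out libraries. No pair of libraries of a genotype held the same counts within sampling noise. Python 3.11.15, numpy 2.4.6, pandas 2.3.3, scipy 1.17.1, biopython 1.88 and matplotlib 3.10.9 were used.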

Additional observations from a re-analysis of the deposited data

Results flagged for a closer look

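Within each genotype, 70 genes (the 10 of the circuit and, the other tested genes given with a level, count total, fold change or correlation of their own) and the 6 ratios were checked for a library that stood apart from the other 3, which made 152 groups of 4 libraries. The check marked 6 groups in 5 genes, where chance marks about 1 group in 20, and none of the 10 genes of the circuit or of the ratios was among them. For *E2f7*, an atypical E2F, wild-type replicate 2 held 37.4 CPM against 22.6, 22.6 and 22.8 CPM in the other wild-type libraries, and Tbx20EH1Mut replicate 3 held 15.3 CPM against 13.8, 13.8 and 13.7 CPM in the other mutant libraries. For *Rbl2* (p130), wild-type replicate 2 held 8.86 CPM against 6.68, 6.69 and 6.83 CPM. For *Yap1*, the same library held 216.5 CPM against 180.0, 185 and 185 CPM. *Dna2*, one of the genes that ran most like *Ccnd2*, was at 35.7 CPM in Tbx20EH1Mut replicate 3 and at 29.9, 29.3 and 29.4 CPM in the other mutant libraries. *Trim27*, one of those most like *Mycn*, was at 98.2 CPM in wild-type replicate 1 and at 107, 109 and 108.5 CPM in the other wild-type libraries. Wild-type replicate 2 also had the highest *Ccnd1* and *Cdk6* of its genotype.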

How the results depend on the processing

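Over the 20 alternatives, *Ccnd2* kept its call, and *Ccnd1*, *Ccnd3*, *Cdk6*, *Mycn*, *Myc* and *Cdkn1b* kept their direction. The mean red cell marker level as a covariate left 1 lower and 0 higher of the 10 genes, 0 lower and 1 higher of the circuit lists, 0 lower E2F-responsive and 0 lower Myc-responsive genes, and 19 lower and 76 higher of all genes. Testing against a log2 fold change of 0.5 (glmTreat) gave 1 and 0, 2 and 2, 1, 3, and 475 and 745. The foregut covariate gave 7 higher circuit genes, and 3676 lower and 3391 higher of all genes. The cause of these shifts was not tested.

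With 1 library left out, 2 to 3 of the 10 genes were lower and 2 higher, 10 to 18 circuit genes were lower (fewest without wild-type replicate 3) and 4 to 7 higher (most without wild-type replicate 1). The lower E2F-responsive genes numbered 5 (without Tbx20EH1Mut replicate 4) to 10 and the Myc-responsive ones 7 (without wild-type or Tbx20EH1Mut replicate 4) to 12. All genes gave 1496 to 3349 lower and 1436 to 3237 higher, with 1621 and 1440 without wild-type replicate 3, 1565 and 1436 without wild-type replicate 4 and 1496 and 1532 without Tbx20EH1Mut replicate 4. The difference between genotypes (Tbx20EH1Mut minus wild-type) in the log2 ratio of *Ccnd2* to *Ccnd1* ranged from -0.35 to 0.41 (-0.08 without wild-type replicate 2, -0.35 without Tbx20EH1Mut replicate 3, -0.01 without Tbx20EH1Mut replicate 4) and the difference in that of *Cdkn1c* to *Cdkn1a* from -0.31 to 0.10 (0.09 and 0.10 without Tbx20EH1Mut replicates 1 and 2). With 3 libraries against 4, the differences in the ratios that passed kept their direction.

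Of genes that did not pass, *Cdk4* turned to -0.013 and *Cdkn1c* to 0.0071 without wild-type replicate 2 and Tbx20EH1Mut replicates 1 and 2 (an alternative chosen after seeing the data), *Cdkn1c* to 0.32 with the foregut covariate, and *Cdkn1a* to 0.023 with upper-quartile scaling and 0.15 with the red cell covariate, and with 1 library left out it ranged from -0.19 to 0.053 (the latter without Tbx20EH1Mut replicate 3).

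The replicate numbers did not pair the libraries, since same-numbered libraries correlated at -0.268, 0.338, 0.0601 and 0.0599. With a replicate block, 3945 of all genes and 4 of the 10 passed, and *Cdk6* had an adjusted p of 0.0709 (edgeR's quasi-likelihood test). Upper-quartile scaling shifted the median of all genes by 0.0855. Genes near 1 CPM are the least precise at this depth.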
